A study of Mus musculus with 4 samples.

Results

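The genes described here are 42 genes of DNA replication and mitosis. They were chosen by name for what their proteins do, but with earlier results of these data known. They were read on all 4 arrays of a study that compared mouse embryonic stem cells lacking Snai1 with control cells. Snai1 is the gene of a transcriptional repressor that acts in epithelial-mesenchymal transition. Single-gene probe sets of the Affymetrix array named 41 of the 42 genes, and these 41 genes hold 92 of the 45037 non-control probe sets and stand among 18193 named genes in all. They fall into 23 mitosis genes of 24 listed and all 18 replication genes listed. The B-type cyclin gene Ccnb1 has no expression value here, because no single-gene probe set in the annotation names it. Its promoter window is counted with the mitosis genes where motifs are given.

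Cells of each genotype, control or Snai1 knockout, were sampled in 2 settings, as embryoid bodies at day 5 and as teratomas at week 6, which makes 4 groups of 1 array. Control cells carry the genotype F/F, and the labels do not describe how the allele was built or say whether either genotype is more than 1 clone. Embryoid bodies are stem cell aggregates, made here as hanging drops, that differentiate on their own in suspension. Teratomas are tumours of mixed tissue, here grown from cells injected under the skin of a hind limb in male nude mice, which were 6 weeks old. Nude mice keep B cells and myeloid cells, so host cells can be present in the tumour RNA, and the labels do not say whether tumours were pooled. With 1 array per group no difference below has a replicate check, and no test was run.

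A dividing cell copies its DNA in S phase and separates the copies in mitosis. Origins of replication are licensed when Cdc6 and Cdt1 load the MCM helicase, which Cdc45 and the GINS complex then activate. Cyclins A and B with Cdk1 drive entry into mitosis, and the anaphase-promoting complex with Cdc20 ends it by marking cyclin B for destruction. Genes of both phases are transcribed in waves. E2F factors drive the earlier wave of replication genes, and complexes that bind the CHR element, among them the repressor DREAM and the activators B-Myb and FoxM1, time the later wave of mitosis genes.

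The sequences below show where these motifs stand in the promoters of 8 members whose values are given further on. RefSeq promoter windows on build GRCm38.p6, from 250 bases before to 50 bases after a start site, were at hand for 36 of the 42 genes. None was used for Ccna2, Aurkb, Kif20a, Tpx2, Mcm4 and Gins2. Each line gives the 150 bases before the start site, 5′ to 3′ on the gene's strand. Capitals mark the CHR element, which is TTTGAA, and the E2F core. The core was searched in 4 forms, of which the usual one is TTGGCGC. Another form is TTCCCGC, and the remaining ones are TTGCCGC together with TTCGCGC. Both strands were searched, so a match can also appear as its reverse complement. Cdk1 (chr10:69352913-69353062, minus strand), Kif11 (chr19:37376232-37376381, plus), Ube2c (chr2:164769779-164769928, plus) and Mki67 (chr7:135716380-135716529, minus) are mitosis genes with a CHR element.
Cdk1: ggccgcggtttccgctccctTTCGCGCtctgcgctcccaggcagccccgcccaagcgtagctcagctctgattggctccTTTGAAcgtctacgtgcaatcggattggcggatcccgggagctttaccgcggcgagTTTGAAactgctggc
Kif11: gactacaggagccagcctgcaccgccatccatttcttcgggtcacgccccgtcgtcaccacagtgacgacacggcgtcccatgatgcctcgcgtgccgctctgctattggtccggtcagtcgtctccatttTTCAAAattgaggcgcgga
Ube2c: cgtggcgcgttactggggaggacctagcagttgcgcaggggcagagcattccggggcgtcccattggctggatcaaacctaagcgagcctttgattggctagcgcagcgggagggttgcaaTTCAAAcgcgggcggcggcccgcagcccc
Mki67: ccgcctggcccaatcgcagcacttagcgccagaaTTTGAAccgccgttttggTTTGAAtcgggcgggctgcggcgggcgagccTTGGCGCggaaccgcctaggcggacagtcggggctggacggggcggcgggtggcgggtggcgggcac
Mcm6 (chr1:128359706-128359855, minus strand), Cdc6 (chr11:98908001-98908150, plus), Rfc3 (chr5:151651209-151651358, minus) and Prim1 (chr10:128015065-128015214, plus) are replication genes with an E2F core. In Mcm6, each of the longer stretches in capitals is a pair of overlapping matches.
Mcm6: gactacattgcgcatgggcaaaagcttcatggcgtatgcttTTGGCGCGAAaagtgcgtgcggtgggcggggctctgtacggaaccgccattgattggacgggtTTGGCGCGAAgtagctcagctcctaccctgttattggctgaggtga
Cdc6: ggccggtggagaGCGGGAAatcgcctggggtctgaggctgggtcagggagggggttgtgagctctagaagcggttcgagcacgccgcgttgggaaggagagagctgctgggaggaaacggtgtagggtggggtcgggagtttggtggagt
Rfc3: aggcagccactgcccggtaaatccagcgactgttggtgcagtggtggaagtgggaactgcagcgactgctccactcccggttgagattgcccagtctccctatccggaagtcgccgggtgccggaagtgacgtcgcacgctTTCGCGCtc
Prim1: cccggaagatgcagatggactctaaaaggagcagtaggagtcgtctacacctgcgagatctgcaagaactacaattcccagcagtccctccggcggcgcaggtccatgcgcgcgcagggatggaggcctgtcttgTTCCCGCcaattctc

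In the whole window of 300 bases, the CHR element stood in 14 of 20 mitosis genes (70%) and in 2 of 16 replication genes (12.5%). Among the 10669 genes with a window that were measured in at least 1 comparison it stood in 14%, and among all 32851 windows in 17.9%. The E2F core had the opposite distribution, with 3 of 20 mitosis genes (15%) and 11 of 16 replication genes (68.8%), against 18.9% of measured genes and 9.57% of all windows. The CCAAT box (CCAAT on either strand), which NF-Y binds, stood in 17 of 20 mitosis and 11 of 16 replication genes, against 42.8% of measured genes. Counted from the start site, the CHR elements of Cdk1 lie at -71 and -15 and its CCAAT boxes at -208, -80 and -48. In Kif11 the element lies at -19 and a CCAAT box at -45. These matches are letters in a window and do not show that a factor binds there.

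**Figure D1:**
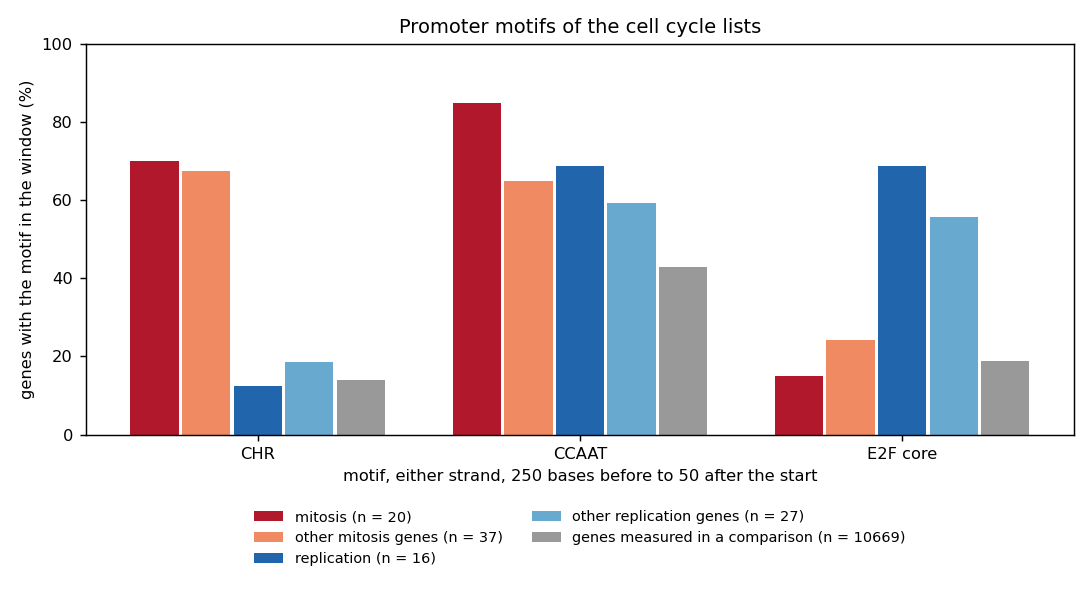
The share of genes, in percent, whose 300-base promoter window holds each motif on either strand, for the member lists, for other cell cycle genes and for all measured genes with a window. The bars for the CHR element are at 70% in mitosis and 12.5% in replication genes, and those for the E2F core at 15% and 68.8%.

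Facts of the 4 arrays bear on every value. The log2 values lack a true zero. A floor was therefore set at the median of each array, between 4.71 and 5.08, and a value under the floor was raised to it before a difference was taken. The Snai1 probe set read 4.78 in the control embryoid body, just above its floor of 4.71, and 3.45 in the knockout, and neither teratoma reached the floor, so it checks the labels of the teratomas in no way. Embryoid bodies held pluripotent cell markers, 11 of 11 above the floor on both arrays, against 8 in the control and 10 in the knockout teratoma. Both teratomas held neuronal markers, 15 of 15, against 8 of 15 in each embryoid body. The excess of 3′ over 5′ signal for Gapdh, a measure of RNA integrity, was 0.10 to 0.17 in embryoid bodies and 0.40 to 0.65 in teratomas.

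The members had a common order on the arrays. Both teratoma arrays lay below both embryoid body arrays for 39 of the 40 measured members, while 49.2% of all genes above the floor on at least 1 array had that order. The knockout teratoma was the lowest of the 4 arrays for 37 of 40, against 29.0% of all genes. The exceptions to the lowest place were the replication genes Mcm4, Mcm6 and Rfc3, in which the control teratoma was lowest. The remaining gene of the 41, the thymidylate synthase gene Tyms, lay below the floor on all 4 arrays in each of its 4 single-gene probe sets and has no difference here.

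**Figure D2:**
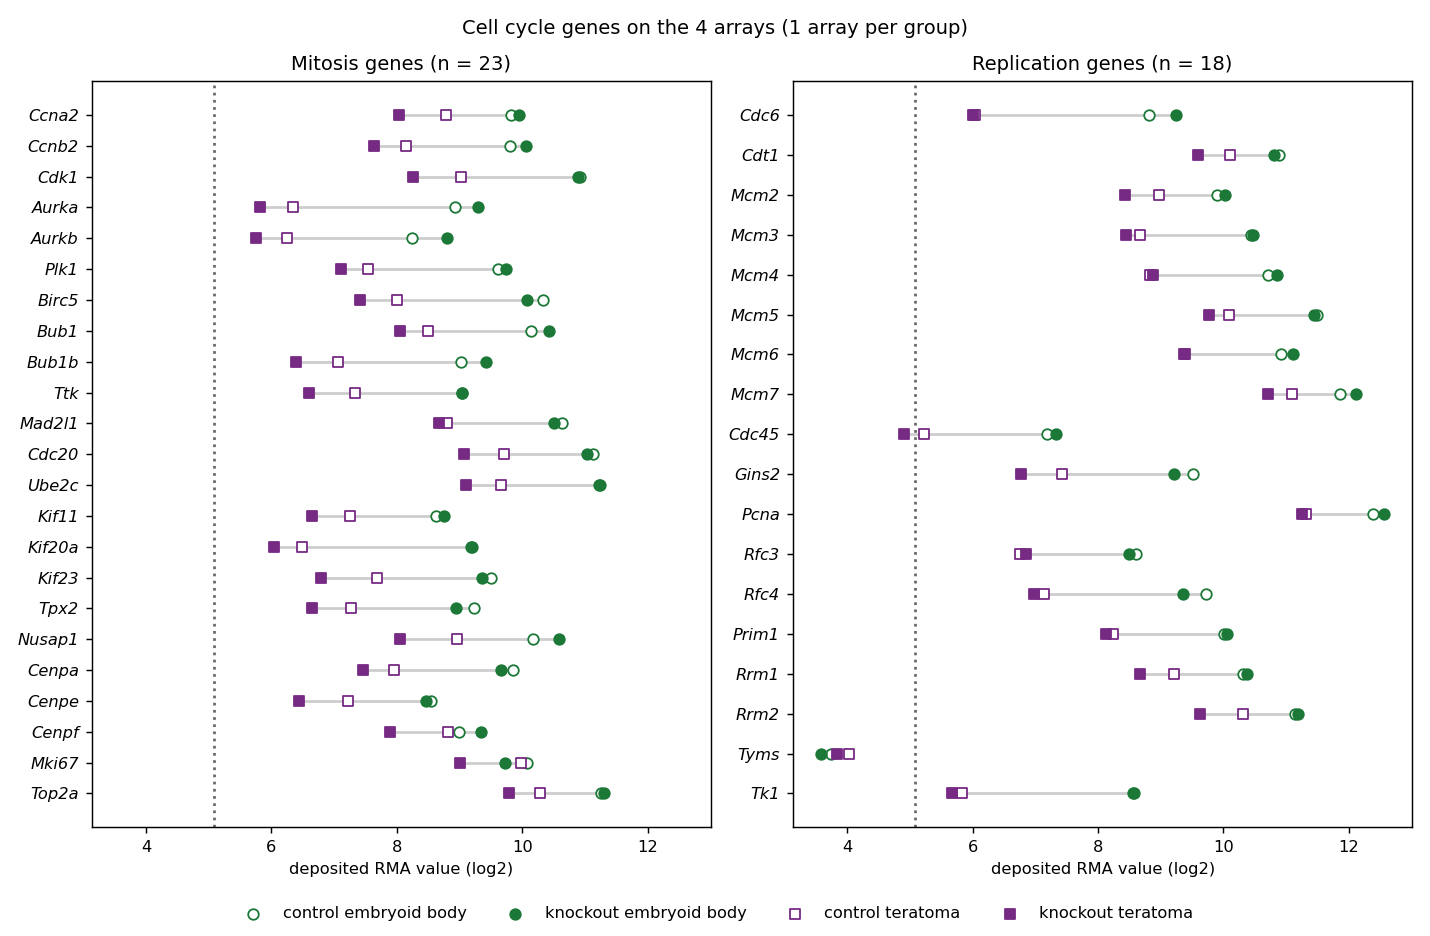
Deposited log2 values of each mitosis gene (left) and replication gene (right) on the 4 arrays, with 1 array per group, circles for embryoid bodies and squares for teratomas, open for control and filled for knockout, and a dotted line at the highest of the 4 floors, 5.08. The filled square is the leftmost mark in all 23 mitosis genes, but not in Mcm4, Mcm6, Rfc3 and Tyms, the last of which lies below the floor throughout.

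The first comparison asked how the members differ between knockout and control teratomas. The mitosis genes were lower in the knockout, with a median difference of -0.61 over 23 genes, and the replication genes differed by a median of -0.18 over 17, against 0.06 over all 12197 genes measured. All 23 mitosis genes and 14 of 17 replication genes lay below 0, as did 42.2% of all genes. No member reached a 2-fold difference, which 1.07% of all genes reached downward. At 0.5 log2 units, which is 1.41-fold, 16 of 23 mitosis genes and 5 of 17 replication genes were lower, against 6.80% of all genes. The replication count was 1 of 15 without probe sets of shared sequence and 0 of 16 with the mean of a gene's probe sets, where the mitosis counts were 17 of 20 and 12 of 21. In a tumour sampled whole, fewer dividing cells and less of each RNA per dividing cell cannot be told apart.

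Among mitosis genes, Mki67 and Cenpf had the largest differences. Mki67, whose protein coats mitotic chromosomes and is the standard marker of dividing cells, read 9.98 in the control and 9.01 in the knockout teratoma, a difference of -0.97 or 1.96-fold. It has 1 probe set. Cenpf, a kinetochore protein gene, read 8.82 and 7.90, a difference of -0.92, and another of its probe sets gave -1.10. Cenpe, a kinetochore motor gene, differed by -0.78, and Cenpa, the gene of the centromeric histone, by -0.49. Top2a, which untangles sister DNA, differed by -0.49 from 10.29 to 9.79.

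The genes of the spindle and of mitotic entry differed by -0.90 to -0.44. Nusap1, a microtubule-bundling protein gene, read 8.96 and 8.06 and differed by -0.90. Kif23, a motor of the central spindle, read 7.68 and 6.79 and differed by -0.89. Cdk1, the kinase that starts mitosis, read 9.03 and 8.25, which is 1.71-fold lower in the knockout, and its partner Ccna2 read 8.78 and 8.04. Ccnb2, a B-type cyclin, differed by -0.51 from 8.15 to 7.64. Kif11 and Tpx2, which build the bipolar spindle, differed by -0.61 and -0.62, and Kif20a, a motor for cell separation, by -0.44.

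Mitotic kinases and checkpoint genes included 3 of the 4 smallest differences of the list, those of Mad2l1, Plk1 and Bub1. The kinase genes Aurka, Aurkb and Plk1 differed by -0.53, -0.50 (just short of the 0.5 line before rounding) and -0.43, and Birc5, whose protein works with Aurora B at centromeres, by -0.60. The checkpoint kinases Ttk, Bub1b and Bub1 differed by -0.75, -0.66 and -0.44. Mad2l1, which holds back Cdc20 until chromosomes are attached, read 8.80 and 8.68 and differed by -0.12. It was the only mitosis gene between 0 and -0.40. Cdc20 and the ubiquitin-conjugating enzyme gene Ube2c, partners of the anaphase-promoting complex, differed by -0.63 and -0.55.

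Replication genes split within their list. The clamp Pcna, which tethers DNA polymerases, read 11.31 in the control and 11.25 in the knockout teratoma, and the primase gene Prim1 read 8.24 and 8.12. The clamp loader genes Rfc3 and Rfc4 differed by 0.09 and -0.17, and another Rfc3 probe set by 0.22. Licensing factor Cdc6 read 6.03 and 6.01, the thymidine kinase gene Tk1 5.83 and 5.68. Cdc45 lay below the floor in the knockout, at 4.91, so its difference of -0.18 is a bound. Of the MCM helicase, Mcm4 and Mcm6 differed by 0.05 and 0.02, Mcm3 by -0.23, Mcm5 by -0.31, Mcm7 by -0.39 and Mcm2 by -0.55. The others at or past -0.50 were Rrm2 at -0.68 and Rrm1 at -0.53, the subunit genes of ribonucleotide reductase, Gins2 of the GINS complex at -0.65 and Cdt1 at -0.51.

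Other probe sets of the same genes give the only internal measure of spread, and they share the RNA and the array. For mitosis genes, 12 other probe sets of 10 genes were above the floor in a teratoma, and 11 were below 0 and 9 at or past -0.50. These included Bub1b at -0.86, Tpx2 at -0.84 and Kif11 at -0.80, while a further Kif11 probe set gave 0.29. For replication genes, 18 other probe sets of 13 genes were measured, with a median of -0.15, and 0 of them reached -0.50. Each of the 5 replication genes past that line has another probe set short of it: Mcm2 at 0.21, Cdt1 at -0.07, Gins2 at -0.26, Rrm1 at -0.42 and Rrm2 at -0.21 and -0.45. Of these 5 only Rrm1 is read by a probe set without a suffix that marks probes shared between transcripts or genes. The pooled SD between probe sets of a gene was 0.29 over all genes and 0.24 over the members.

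Within the mitosis list, genes with and without the CHR element had similar medians. Those with the element had a median of -0.62 over 14 genes, with values from -0.97 to -0.43. Those without it had a median of -0.60 over 5, from -0.90 to -0.12, and Ccnb1, which also lacks it, has no value. Replication genes with an E2F core had a median of -0.23 over 11 genes and those without it -0.16 over 4. The promoters printed above were chosen after values were seen, so their values do not bear on the motifs. Among them, Mki67 was at -0.97 and Cdk1 at -0.77, and both hold an E2F core as well as a CHR element. Cdc6 was at -0.02 and Rfc3 at 0.09, while the 11 replication genes with a core ran from -0.68 to 0.09.

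Markers of several cell types differed between the teratomas as well. Of 19 leukocyte markers, 11 were above the floor in the control and 17 in the knockout, and their summed linear values were 3557 and 9308. Neuronal markers, which belong to cells that no longer divide, were all above the floor on both arrays, with sums of 20616 and 29900. Of these, 8 of 15 were at least 2-fold higher in the knockout, against 3.25% of all genes. Glial markers summed to 8180 and 12997 with 9 of 10 above the floor on both arrays. Pluripotent cell markers summed to 1223 and 3246, with 8 and 10 of 11 above the floor, and neural progenitor markers to 9868 and 9340, with 9 of 10 on both. Of the 9 progenitor markers measured, 7 lay below 0 and 1 was at least 2-fold lower, against 42.2% and 1.07% of all genes. Their median difference was -0.27. Mesenchymal and fibroblast markers summed to 32523 and 20618, with 10 of 10 on both. Simple and gut epithelium markers were lower in the knockout together with the mitosis genes. All 10 lay below 0 and 4 were at least 2-fold lower, against 42.2% and 1.07% of all genes. Their sums were 8863 and 4480, with 10 and 9 of 10 above the floor. Skeletal muscle markers summed to 5266 and 6774, with 8 of 8 on both, but 3 were at least 2-fold lower in the knockout and 0 higher. Their median difference was 0.12, with 4 of 8 below 0. Of 7 primitive red cell markers, 1 was above the floor on each array, with sums of 144 and 167. Gapdh 3′ excess was 0.65 in the control and 0.40 in the knockout. The part of these in the lower mitosis values was not tested.

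In embryoid bodies, the same members differed little between knockout and control. The median difference was -0.01 over 23 mitosis genes and 0.06 over 17 replication genes, against 0.03 over all 12282 genes measured. Of 40 members, 18 lay below 0, where 46.6% of all genes lay. None was 2-fold lower or higher, against 3.98% and 2.18% of all genes. At 0.5 log2 units, 0 members were lower and 1 was higher, against 10.4% and 9.18% of all genes. That gene was Aurkb, which read 8.24 in the control and 8.79 in the knockout, and its other probe set differed by -0.09.

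In the probe sets used, values of single members in embryoid bodies stayed close on both arrays. Cdk1 read 10.92 and 10.89 in control and knockout, Ube2c 11.24 and 11.23, Kif20a 9.19 and 9.18, and Tk1 8.58 and 8.56. Above 0, Cdc6 read 8.82 and 9.24, Nusap1 10.17 and 10.58 and Bub1b 9.03 and 9.43. Below 0, Rfc4 read 9.72 and 9.35 and Mki67 10.08 and 9.73. The 6 MCM genes differed by -0.06 to 0.25. These spans are near the pooled SD of 0.31 between probe sets of a gene. Other probe sets of replication genes spread more widely, from -0.76 for Mcm4 to 0.57 for Rrm2. Of 21 measured, 2 were at or past -0.50 and 4 at or above 0.50. They included Mcm6 at -0.50, Mcm7 at 0.52 and Mcm3 at 0.57. Of 17 other probe sets of mitosis genes, 0 were that far from 0 in either direction. On the same arrays the summed values of primitive red cell markers were 35984 and 2624, with 7 and 5 of 7 above the floor, and those of mesenchymal and fibroblast markers 25596 and 3765, with 9 and 10 of 10. The bodies thus differed in marker content while the cell cycle members were near 0, and a link between these was not tested.

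The knockout difference was then compared between the settings, which share no array. The teratoma difference minus the embryoid body difference had a median of -0.73 over mitosis genes and -0.27 over replication genes, against 0.04 over 11187 genes measured in both. It was below 0 for 22 of 23 mitosis and 15 of 17 replication genes, as it was for 46.7% of all genes. It was at or below -0.50 for 18 of 23 and 4 of 17, and for 13.9% of all genes. Nusap1 had the largest value, -1.31, followed by Cenpf at -1.27, Bub1b at -1.07 and Aurkb at -1.05. Mad2l1 stood at 0.01, Rfc3 at 0.20 and Rfc4 at 0.21. No test of this difference was possible with 1 array per group.

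**Figure D3:**
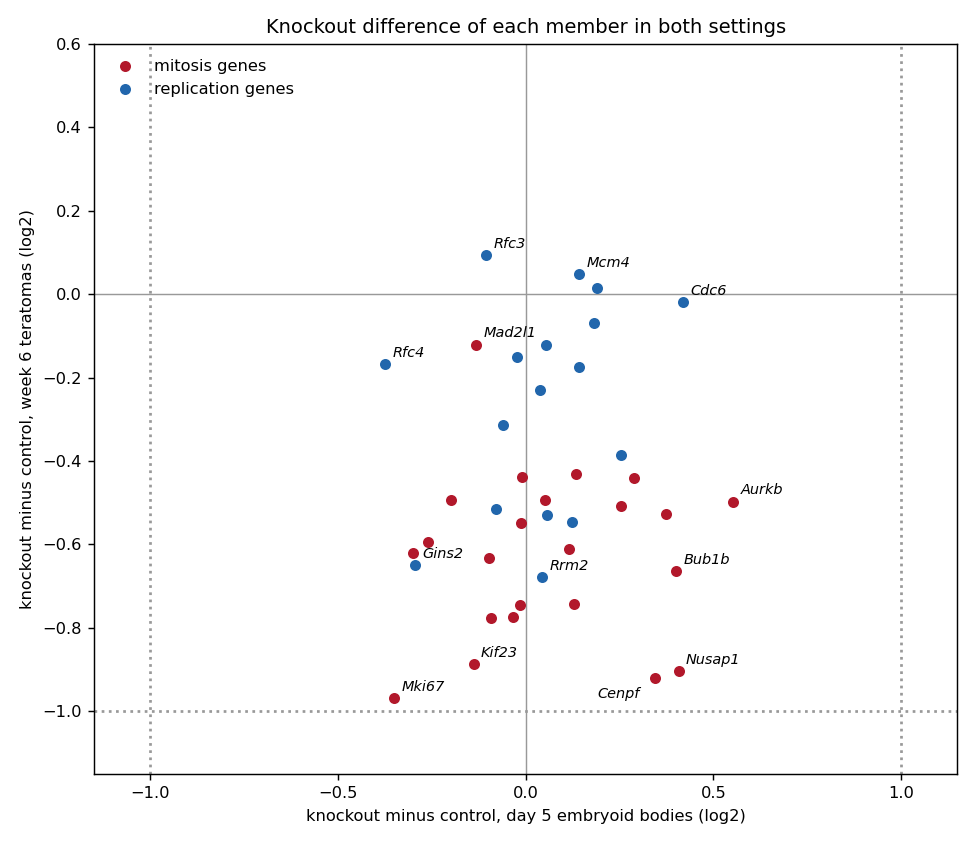
The log2 difference of knockout minus control for each of the 40 measured members, in day 5 embryoid bodies on the horizontal axis and in week 6 teratomas on the vertical axis, with dotted lines at 2-fold. Points spread around 0 from left to right, while the mitosis genes lie between -0.97 and -0.12 from bottom to top and the replication genes between -0.68 and 0.09.

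Teratomas were then set against embryoid bodies of the same genotype, which asks how the members differ between an early aggregate and a tumour of mature tissue. All 40 measured members had lower values in teratomas in both genotypes. In control cells the median was -1.71 for mitosis and -1.76 for replication genes, against -0.18 over 12956 genes, and 33 of 40 members were at least 2-fold lower against 19.0% of all genes. In knockout cells the medians were -2.37 and -1.73, against -0.15 over 12936 genes, and 39 of 40 were at least 2-fold lower against 19.8% of all genes. With the mean of a gene's probe sets, the mitosis and replication medians were -1.42 and -1.75 in control cells and -1.89 and -2.01 in knockout cells. Which list fell further in knockout cells thus depends on the probe sets used. The RNA came from columns for embryoid bodies and from Trizol for teratomas, so tissue and extraction cannot be told apart. Centring the arrays on their medians shifts the median of all genes by a further -0.37 in control and -0.31 in knockout cells, and the members' medians move with it.

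Single members spread widely in this comparison. Cdc6 read 8.82 (control) and 9.24 (knockout) in embryoid bodies, then 6.03 and 6.01 in teratomas, so it was 6.90-fold and 9.35-fold lower. Tk1, read at 8.58 and 8.56 and then 5.83 and 5.68, was 6.75-fold and 7.37-fold lower. Kif20a went from 9.19 to 6.49 in control cells and from 9.18 to 6.05 in knockout cells, and Aurka from 8.93 to 6.35 and from 9.30 to 5.82, the latter 11.1-fold. Cdc6 led the replication list in both genotypes, while Kif20a led the mitosis list in control cells and Aurka in knockout cells.

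Mki67 and Cenpf stood at the other end. Mki67 read 10.08 in control embryoid bodies and 9.98 in the control teratoma, a difference of -0.10, and 9.73 and 9.01 in knockout cells, a difference of -0.72. Cenpf read 8.99 and 8.82 in control cells, a difference of -0.17, and 9.33 and 7.90 in knockout cells, a difference of -1.44. Its other probe sets gave -0.50 and -0.06 in control cells. Mki67 was thus the only measured member in which an embryoid body array did not exceed both teratoma arrays, since the knockout embryoid body read 9.73 against 9.98. Mcm7, Cdt1, Rrm2 and Mcm2 were under 2-fold in control cells too, at -0.77, -0.78, -0.83 and -0.93, and Top2a at -0.97. Other probe sets of the replication genes among them gave larger differences, such as -1.88 for Mcm7, -1.70 for Cdt1 and -1.98 for Mcm2. Probe sets of a gene differed by a pooled SD of 0.74 in control and 0.76 in knockout cells over all genes, more than in the knockout comparisons. Over the members this SD was 0.71 in control and 0.90 in knockout cells.

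The rest of the cell cycle machinery was read in 4 further lists. Other mitosis genes had a median of -0.60 in knockout against control teratomas over 44 measured of 46, with 42 below 0, 26 at or past -0.50 and 3 at least 2-fold lower. Of all genes, 42.2% lay below 0, 6.80% at or past -0.50 and 1.07% at 2-fold lower, with a median of 0.06. The 3 were Aspm, a spindle pole gene, at -1.33, the condensin gene Ncapg at -1.27 and the phosphatase gene Cdc25b, which activates Cdk1, at -1.10. Another Aspm probe set gave -1.09, but another Ncapg probe set gave -0.03. The kinetochore genes Ndc80 and Knl1 differed by -0.93 and -0.89. Other replication genes had a median of -0.12 over 34 measured of 35, with 25 below 0, 2 at or past -0.50 and 1 at least 2-fold lower, to be read against the same shares of all genes. That was Clspn, a replication checkpoint gene, at -1.20, followed by Uhrf1, which helps copy DNA methylation, at -0.62. In embryoid bodies the medians of the 2 lists were 0.07 and 0.09, where Cdc25b differed by -1.04 and the origin recognition gene Orc1 by 0.99. Another Orc1 probe set differed by 0.07.

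In these wider lists the promoters differed as in the members. The CHR element stood in 25 of 37 other mitosis genes with a window (67.6%) and in 5 of 27 other replication genes (18.5%). The E2F core stood in 9 of 37 (24.3%) and in 15 of 27 (55.6%).

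**Figure D4:**
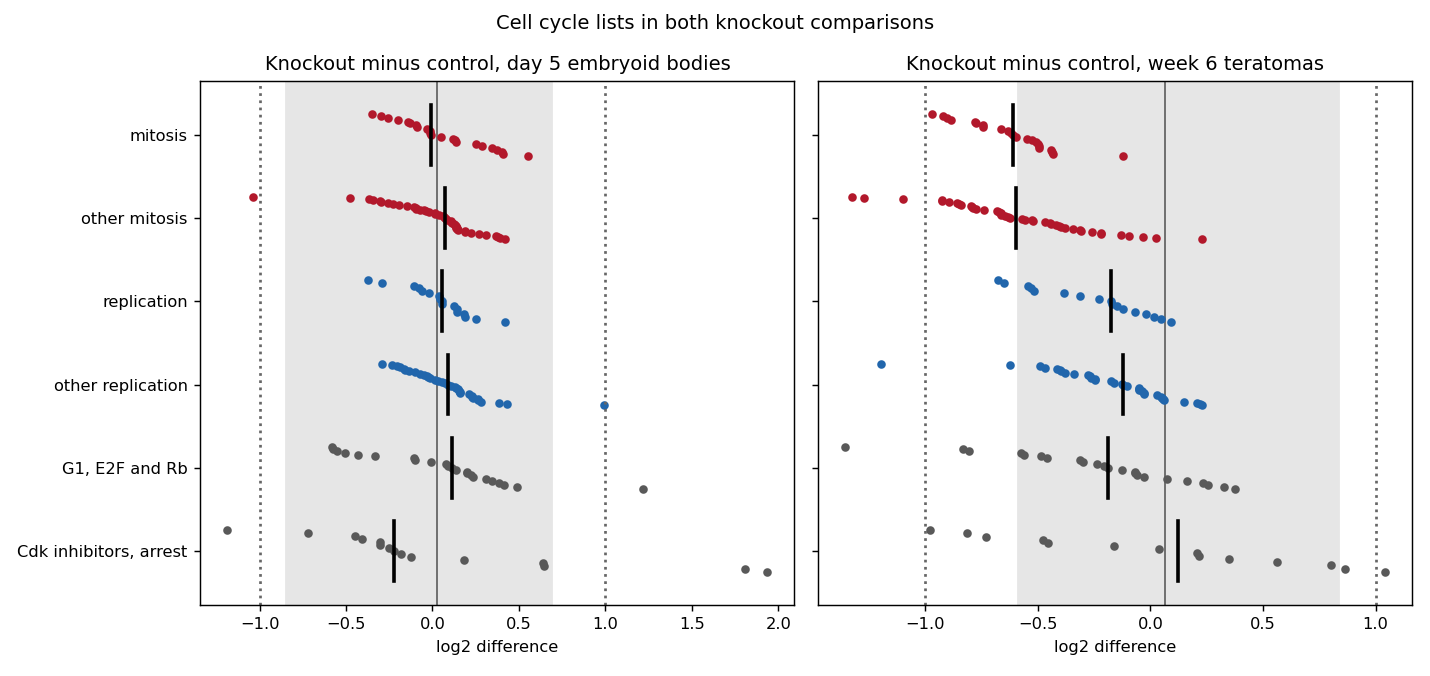
Log2 differences of knockout minus control for every measured gene of 6 cell cycle lists, 1 point a gene, with a black bar at each list's median, a grey band from the 5th to the 95th percentile of all genes, a grey line at their median and dotted lines at 2-fold. In teratomas the medians of both mitosis lists, -0.61 and -0.60, lie just past the lower edge of the band, which is at -0.59, while the medians of both replication lists, -0.18 and -0.12, lie inside it.

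Genes of the G1 phase and of the E2F and Rb families had a median of -0.19 over 23 genes in teratomas, with 5 at or past -0.50 and 1 at least 2-fold lower, against 6.80% and 1.07% of all genes and their median of 0.06. That gene was E2f7, a repressor of E2F targets, which read 6.79 and 5.43 in control and knockout and differed by -1.35. Its relative E2f8 differed by -0.83, the Rb relative Rbl1 by -0.81, the D-type cyclin gene Ccnd2 by -0.58 and the S-phase kinase gene Cdk2 by -0.56. Ccne1, Cdk4 and E2f1 differed by -0.24, -0.31 and 0.16. Teratomas were higher than embryoid bodies in Rbl2, a pocket protein of resting cells, by 2.41 in control and 3.12 in knockout cells, and in Rb1 by 1.59 and 2.38. A further Rbl2 probe set was below the floor in the control comparison and gave 0.74 in knockout cells. In knockout embryoid bodies E2f4 was 2.33-fold higher, at 7.47 against 6.25.

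Cdk inhibitors and arrest genes had no common direction. Their median was -0.22 over 15 genes in embryoid bodies, with 2 at least 2-fold higher and 1 lower, against 2.18% and 3.98% of all genes and their median of 0.03. In teratomas it was 0.12 over 14 genes, with 1 at least 2-fold higher, against 3.25% of all genes and their median of 0.06. Cdkn2b and Cdkn2a, neighbouring genes that encode inhibitors of G1 Cdks, were higher in knockout embryoid bodies. Cdkn2b read 5.55 in the control and 7.49 in the knockout, which is 3.83-fold, and Cdkn2a read 6.25 and 8.06, which is 3.50-fold. Each has 1 probe set. Neither teratoma reached the floor for Cdkn2a, and Cdkn2b differed by -0.46 there. Gas1, a growth arrest gene, differed by -1.19 in embryoid bodies and -0.81 in teratomas. Gadd45a, a stress-induced arrest gene, was 2.06-fold higher in the knockout teratoma, and Gadd45b and Gadd45g differed by 0.87 and 0.80. Cdkn1a differed by 0.18 and 0.21 and Cdkn1b by -0.25 and 0.22. Cdkn1c was lower in teratomas than in embryoid bodies by 10.8-fold in control and 13.5-fold in knockout cells.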

How the data were processed

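Each of the 4 arrays has 1 column of log2 expression, as the authors deposited it. Per the submitters' processing notes they were made with affy and RMA, a method of background correction, quantile normalization and probe summary. Not given in the sources used here are versions, chip definition and whether the arrays were normalized together. Per the labels' protocols, each sample's 250 ng of RNA was amplified to make biotin-labelled target.

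Of 45101 probe sets, 64 were controls, 34945 named 1 gene, 932 several and 9160 none in the annotation used here. Entrez numbers of 34741 matched RefSeq (GRCm38.p6). A gene took its probe set with the highest mean. Differences used a floor at each array's median (Python 3.11.15, pandas 2.3.3). No test was run, and the code was tested on simulated data. No position is taken from the array annotation, since its build is not named. The promoter positions come from the RefSeq windows on GRCm38.p6. Members and lists were chosen with earlier results of these data known. All members could be named, every G1 and inhibitor gene, and in each comparison up to 6 genes of the other mitosis and replication lists. Motifs were searched on both strands of RefSeq windows. The printed promoters were chosen after values were seen. Alternatives covered probe set choice, scaling, floor, threshold and the mean. Leaving out a replicate is not possible with 1 array per group, and their number limits the precision.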

Additional observations from a re-analysis of the deposited data

Results flagged for a closer look

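For 5 mitosis genes the knockout difference had opposite signs in embryoid bodies and teratomas. Each difference was larger than the pooled SD between probe sets of a gene. The share of all genes that meet this rule was not counted, and the difference between settings was not tested. By sign alone, 11 of 23 mitosis genes were above control in the knockout embryoid body and below it in the knockout teratoma. Of 13292 genes above the floor on at least 1 array, 3259 had these signs. The teratoma difference minus the embryoid body difference was -1.31 for Nusap1, -1.27 for Cenpf, -1.07 for Bub1b, -1.05 for Aurkb and -0.90 for Aurka. Other measured probe sets gave the same signs for Cenpf and for 1 of the other Bub1b probe sets, while the other Aurkb probe set differed by -0.09 and -0.51. The other probe sets of Aurka and Nusap1 lay below the floor in both teratomas, so these genes have no second reading there.

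A probe set left out of the comparisons names both Tyms and its pseudogene Tyms-ps. It read 10.15 (control) and 10.12 (knockout) in embryoid bodies, and 7.60 (control) and 7.10 (knockout) in teratomas, and these values cannot be assigned to either gene.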

How the results depend on the processing

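Every median over mitosis or replication genes stayed within the pooled SD between probe sets of its reported value under each alternative run. That SD describes single probe sets, so it is a wide limit for a median over many genes. For teratomas the knockout difference ranged from -0.76 to -0.51 for mitosis and from -0.27 to -0.14 for replication genes. For embryoid bodies it ranged from -0.04 to 0.13 and from 0.02 to 0.10, and the difference between settings from -0.88 to -0.59 and from -0.42 to -0.18. The teratoma minus embryoid body medians in control cells ranged from -2.08 to -1.42 for mitosis and from -2.13 to -1.55 for replication genes. In knockout cells they ranged from -2.68 to -1.89 and from -2.04 to -1.66, so the ranges of mitosis and replication genes overlap. The count of members at 2-fold in teratomas was 0 of 40 as reported and 1 of 70 with every probe set on its own. It was 2 of 40 with arrays centred on the 75th percentile, 5 of 40 after quantile normalization and 15 of 40 at a 1.5-fold threshold. The shares of all genes under these alternatives were not counted, so these counts have no background beside them. Between teratoma and embryoid body the 2-fold count was 62 of 76 in control and 67 of 78 in knockout cells with every probe set on its own, since more probe sets than genes are counted. The teratoma knockout count at 0.5 log2 units was 25 of 35 for mitosis with every probe set on its own. For replication it was 3 of 17 with arrays centred on the median, 1 of 15 without shared-sequence probe sets and 0 of 16 with the mean of a gene's probe sets. Of 1252 values of single members, 1208 stayed within that SD and 44 did not. In all 26 changed sign, 9 of them beyond that SD. Without shared-sequence probe sets, the teratoma minus embryoid body difference became 0.37 for Cenpa and 1.65 for Top2a in control cells and 0.69 for Top2a in knockout cells, the teratoma knockout difference 0.21 for Mcm2, and the embryoid body knockout difference 0.46 for Cdc20 and 0.40 for Cenpa. With the mean of probe sets, Top2a became 0.14 between teratoma and embryoid body in control cells, and in embryoid bodies Tpx2 became 0.18 and Mcm4 -0.31. Signal near the floor limits Cdc45, whose knockout teratoma value is only a bound, and Tyms, which has no difference. No paired analysis was possible because each group has 1 array and the labels carry no replicate numbers.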

Other observations

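Some probe sets of members went against the rest of their gene. A Top2a probe set not used above read 5.14 (control) and 5.24 (knockout) in embryoid bodies, then 6.79 and 5.93 in teratomas, so it was higher in teratomas by 1.65 and 0.69. A Cenpa probe set not used above was higher in the control teratoma by 0.37 and lower in the knockout by -0.55.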
